A study of Oryza sativa with 12 samples.

Results

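Protein phosphatase 2C (PP2C) genes of rice were described in whole seedlings of an *OsHOX24* over-expression line and of wild type, with and without drying. The family was taken as every gene whose symbol or synonym in a reference gene table is PP2C or BIPP2C with a number, with or without the prefix Os, together with *ABIL1*, which is a synonym of *OsPP2C06*. This gave 61 genes, of which 33 had a probe set of their own on the array and 28 were not analysed here for lack of a named probe set. A gene with several probe sets was read from the brightest of them, and the 33 members were set among 15140 genes tested.

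The seedlings were 3 weeks old and of the cultivar Pusa Basmati 1, and 12 Affymetrix arrays covered 4 groups of 3. H49_DS was the transgenic line H49 left to dry for 3 h, H49_CT the same line kept in water for 3 h, WT_DS wild type dried for 3 h, and WT_CT wild type in water. H49 carries the *OsHOX24* coding region under a *UBQ* promoter in all tissues and is a single homozygous line, so the line and the transgene cannot be told apart. The labels call the drying drought and the paper desiccation stress (DS), and they name the transgene but not the line, which is known from the paper. The labels and the study describe the replicates of a group as separate biological samples. RNA of whole seedlings is a mixture, in which fewer cells of a type and less RNA per cell cannot be told apart.

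PP2C proteins are metal-dependent serine/threonine phosphatases, a large family in plants. Members of clade A, named for the Arabidopsis ABI1 and ABI2 phosphatases, are co-receptors of the stress hormone abscisic acid (ABA). Without ABA they bind SnRK2 kinases (SAPK in rice) and keep them dephosphorylated. ABA bound to a PYL receptor blocks the phosphatase, and the released kinases phosphorylate bZIP factors such as OsBZIP23, which switch on late embryogenesis abundant (LEA) and dehydrin genes. Clade A genes are themselves known as ABA-induced genes in many plants. Outside clade A, rice members are known in immunity (*OsPP2C35*, or XB15, which restrains the receptor kinase XA21) and in cytoplasmic male sterility (*OsPP2C13*, or DCW11), and *OsBIPP2C1* and *OsPP2C34*, or OsBIPP2C2, were named for their induction by the resistance inducer benzothiadiazole. For most other members no role is given here.

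Over the whole series, the median log2 value of an array lay between 4.33 and 4.46, and arrays of a group correlated across genes at 0.949 or more. The probe set of *HOX24*, the gene of the construct, gave 10.17, 9.44 and 9.96 in H49_DS against 4.56, 3.57 and 3.23 in H49_CT, and 9.38, 10.29 and 10.06 in WT_DS against 5.61, 4.11 and 2.83 in WT_CT. Its level thus overlapped between H49 and WT under both treatments. The array gives no check of the over-expression, since it was not determined whether the probes lie in the coding region that the construct holds. By real-time PCR, the paper reports raised *OsHOX24* expression over WT in its transgenic lines, H49 among them. Of the seedling's own tissues, 3 green leaf markers and 4 root markers were measured, and 6 seed endosperm markers served as genes that should be dim. Arrays averaged 2.97 to 3.59 over the endosperm markers, although *GLUA1* alone averaged 6.56 ± 0.26 in H49_DS, 6.63 ± 0.05 in H49_CT, 6.60 ± 0.13 in WT_DS and 6.56 ± 0.41 in WT_CT (SD, n = 3 each). All values below are RMA values on the log2 scale, on which a difference of 1 is a 2-fold change, and a gene was called at a limma adjusted p of at most 0.05 with a fold of at least 2.

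After DS the family rose in part, and 5 of the 6 measured clade A members carried the largest rises. In H49, 7 of 33 members were called higher in H49_DS than in H49_CT (21.2%) and 2 lower (6.1%), while of all genes tested 5.26% were called higher and 9.3% lower. In WT, 9 members were called higher in WT_DS than in WT_CT (27.3%) and 2 lower (6.1%), against 4.93% and 8.47% of all genes. The 7 members higher in H49_DS were all among the 9 higher in WT_DS: *OsPP2C06*, *OsPP2C09*, *OsPP2C30*, *OsPP2C59* and *OsPP2C68* of clade A, and *OsPP2C02* and *OsPP2C34* outside it. Over all genes, 4.07% were called higher after DS in both genotypes and 6.31% lower, and 1 member, *OsPP2C05*, was lower in both. *OsPP2C10* and *OsPP2C47* were called higher in WT only, *OsPP2C12* was called lower in H49 only and *OsPP2C33* lower in WT only. No member was called in opposite directions, and 30 of 33 log2 fold changes had the same sign in both genotypes, as did 83.3% of all genes.

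**Figure D1:**
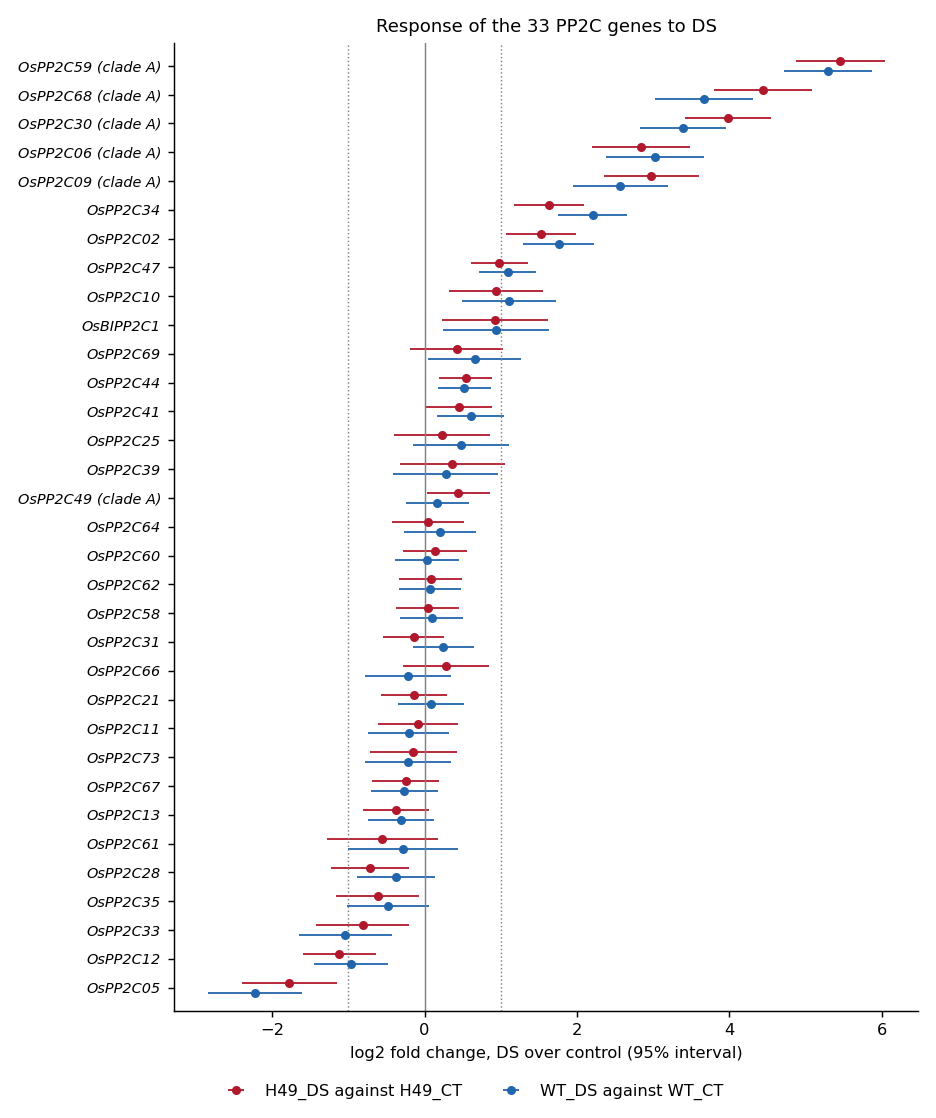
Log2 fold change of each of the 33 PP2C genes after DS, with its 95% interval from the limma fit, in H49 (H49_DS against H49_CT, red) and in WT (WT_DS against WT_CT, blue). Genes run from the largest mean rise at the top to the largest fall at the bottom, the dotted lines mark a 2-fold change, and 5 of the 6 clade A genes head the list with log2 fold changes between 2.57 and 5.46.

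The median log2 fold change of the 33 members was 0.23 in H49 and 0.20 in WT, whereas over all genes it was -0.06 in both. The 6 clade A members had a median of 3.48 in H49 and 3.21 in WT, and the 27 others 0.05 in H49 and 0.09 in WT. With the arrays centred on the median of all genes, the all-gene median moved to 0.16 in H49 and 0.14 in WT, and 10 members were then called higher and 1 lower in each genotype. All genes shifted the same way, to 1136 called higher and 885 lower in H49 with centred arrays, against 797 and 1408 as deposited, and to 1100 higher and 774 lower in WT, against 747 and 1283. The share of higher calls among the members called was 77.8% in H49 and 81.8% in WT as deposited, and 90.9% in each with centred arrays. The clade A calls were the same on both scales, whereas *OsPP2C12* in H49 and *OsPP2C33* in WT were called lower as deposited but not with centred or quantile-normalized arrays. With centred arrays *OsPP2C10* and *OsPP2C47* were called higher in H49 too, and *OsBIPP2C1* in both genotypes. With quantile-normalized arrays *OsPP2C47* was called higher in H49 too. The calls of *OsPP2C10* and *OsPP2C47* in WT only thus depended on the scale.

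*OsPP2C59* (LOC4341949) had the largest rise of the family. Its values were 10.38, 10.40 and 10.57 in H49_DS against 5.20, 5.09 and 4.70 in H49_CT, and 10.19, 10.31 and 10.50 in WT_DS against 5.71, 4.42 and 5.0 in WT_CT. Every dried seedling sample lay far above every control in its genotype, and the lowest dried array was 5.18 above the highest control in H49 and 4.48 in WT. The log2 fold change was 5.46 ± 0.27 in H49 (SE, 43.9-fold, limma adjusted p = 1.675e-07) and 5.29 ± 0.27 in WT (39.1-fold, limma adjusted p = 2.356e-07). Among 15140 genes this was rank 4 of the rises in H49 and rank 2 in WT.

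*OsPP2C68* (gene ID 4346736), also known as OsPP108 and OsSIPP2C1, a stress-induced phosphatase that lowers ABA sensitivity when over-expressed in Arabidopsis, gave 7.94, 7.83 and 8.22 in H49_DS against 3.61, 3.15 and 3.91 in H49_CT. In WT it gave 7.53, 7.85 and 7.89 in WT_DS against 4.47, 3.31 and 4.49 in WT_CT. The groups were again wide apart, by 3.92 in H49 and 3.04 in WT between the nearest arrays. The rise on the log2 scale was 4.44 ± 0.30 in H49 (21.7-fold, limma adjusted p = 1.225e-06, rank 13) and 3.67 ± 0.30 in WT (12.7-fold, limma adjusted p = 5.317e-06, rank 22).

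*OsPP2C30* (LOC4332374), a phosphatase known to bind a rice PYL receptor and the kinase SAPK2, measured 8.03, 7.99 and 8.37 in H49_DS against 4.21, 3.58 and 4.65 in H49_CT. The values in WT were 7.72, 8.08 and 8.20 in WT_DS against 4.90, 4.60 and 4.32 in WT_CT. Dried and control arrays were apart by 3.34 in H49 and 2.82 in WT at their nearest. On the log2 scale it rose by 3.98 ± 0.26 in H49 (15.8-fold, limma adjusted p = 1.225e-06) and by 3.39 ± 0.26 in WT (10.5-fold, limma adjusted p = 3.695e-06).

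*OsPP2C09* (LOC4327465), known in rice as a negative regulator of ABA signalling, stood at 8.68, 8.44 and 8.82 in H49_DS against 5.46, 5.95 and 5.60 in H49_CT. In WT it stood at 8.26, 8.80 and 8.80 in WT_DS against 6.66, 6.13 and 5.36 in WT_CT. The WT_CT arrays were spread over more than 1 log2 unit, and none reached the dried arrays. The rise was 2.98 ± 0.29 log2 units in H49 (7.87-fold, limma adjusted p = 1.476e-05) and 2.57 ± 0.29 in WT (5.94-fold, limma adjusted p = 5.062e-05).

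*OsPP2C06* (LOC4324201), or OsABIL1, the rice gene named for its likeness to ABI1, had values of 9.28, 9.67 and 10.02 in H49_DS against 6.83, 6.62 and 7.01 in H49_CT. Its values in WT were 9.61, 9.68 and 9.60 in WT_DS against 7.42, 6.15 and 6.25 in WT_CT. WT_DS was the tightest of the groups, WT_CT the widest, and dried and control arrays did not overlap. Its log2 fold change was 2.84 ± 0.30 in H49 (7.16-fold, limma adjusted p = 2.69e-05) and 3.02 ± 0.30 in WT (8.13-fold, limma adjusted p = 1.802e-05).

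*OsPP2C49* (LOC9270549) was the clade A member that was not called. It read 5.97, 6.13 and 5.84 in H49_DS against 5.36, 5.94 and 5.31 in H49_CT, and 5.98, 5.80 and 5.77 in WT_DS against 5.66, 5.78 and 5.61 in WT_CT. Dried and control arrays overlapped in both genotypes, in H49 through a single control array at 5.94. In WT a single control array, at 5.78, lay just above the lowest dried array at 5.77. In H49 the log2 fold change was 0.44 (95% interval 0.03 to 0.86, limma adjusted p = 0.1078) and in WT 0.17 (-0.25 to 0.58, limma adjusted p = 0.5614), so that in either genotype the interval lay below a 2-fold change. The 4 other clade A genes of the table, *OsPP2C08*, *OsPP2C50*, *OsPP2C51* and *OsPP2C53*, had no named probe set and were not analysed here.

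**Figure D2:**
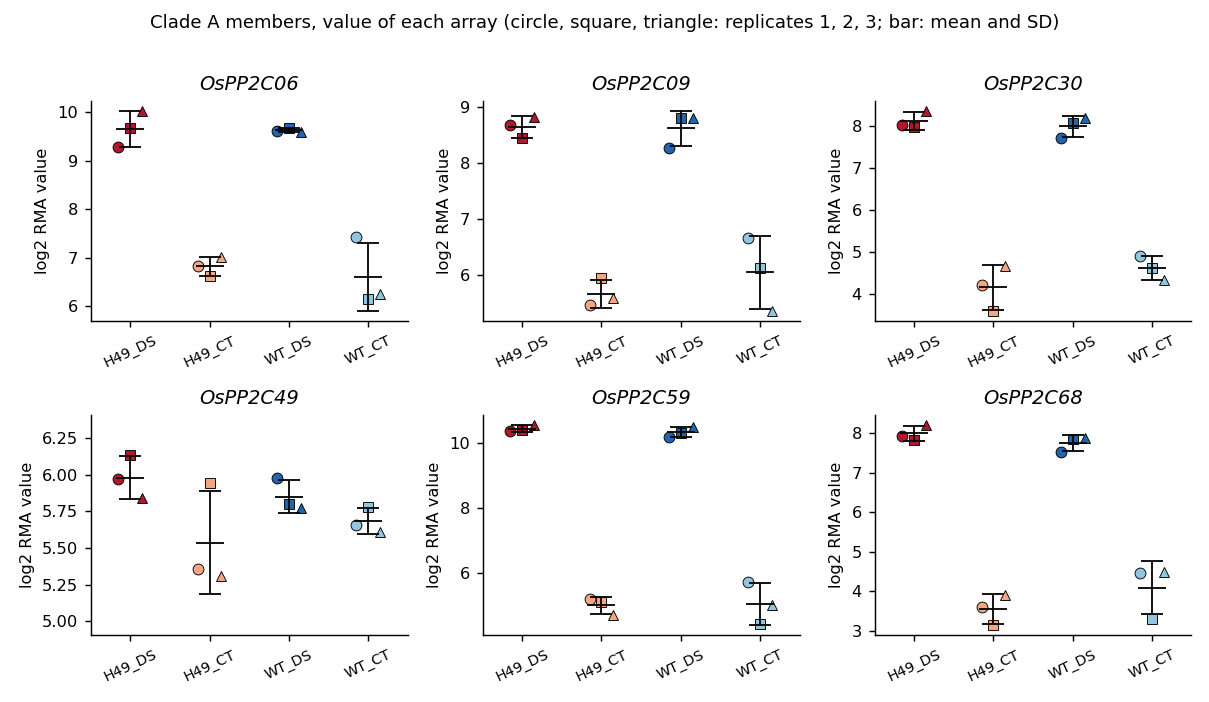
Log2 RMA value of each array for the 6 measured clade A genes, 1 panel per gene, with the groups H49_DS, H49_CT, WT_DS and WT_CT on the horizontal axis and the mean and SD of 3 arrays as bars. Vertical axes differ between panels and do not start at 0. The dried groups sit far above their controls in every panel but that of *OsPP2C49*, whose arrays lie between 5.31 and 6.13.

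Among the controls, WT_CT replicate 1 was the highest of 6 control arrays for 4 of the 6 clade A members, at 7.42 for *OsPP2C06*, 6.66 for *OsPP2C09*, 4.90 for *OsPP2C30* and 5.71 for *OsPP2C59*, as it was for *HOX24* at 5.61. Without that array the log2 fold change in WT was 3.43 for *OsPP2C06*, 2.87 for *OsPP2C09*, 3.54 for *OsPP2C30* and 5.62 for *OsPP2C59*, each a little larger than with it. The 7 members called higher in both genotypes and *OsPP2C05* kept their calls in both genotypes when any 1 of the 12 arrays was left out. The smallest p that an exact permutation test can give is 0.1 for 3 arrays against 3, and 0.005 for DS against control over both genotypes, with the labels exchanged within each genotype. *OsPP2C59* had these p-values (two-sided) within each genotype and over both. They do not set it apart, since over both genotypes 16 of the 33 members had the smallest p. Within a genotype, every member whose dried and control arrays did not overlap had it.

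Outside clade A, 2 of 27 members were called higher and 2 lower in H49, and 4 higher and 2 lower in WT. In H49 these shares lie near the 5.26% higher and 9.3% lower of all genes, and in WT all genes had 4.93% higher and 8.47% lower. *OsPP2C34* (LOC4334191), the benzothiadiazole-induced OsBIPP2C2, had the largest of these rises. It gave 7.63, 7.44 and 7.73 in H49_DS against 5.58, 6.19 and 6.13 in H49_CT, and 7.37, 7.45 and 7.69 in WT_DS against 5.0, 5.59 and 5.30 in WT_CT. The dried arrays of both genotypes lay in the same range, whereas the H49_CT arrays lay mostly above the WT_CT arrays, with 1 H49_CT array inside the range of WT_CT. *OsPP2C34* rose by 1.63 ± 0.21 in H49 (3.1-fold, limma adjusted p = 0.0001405) and by 2.20 ± 0.21 in WT (4.61-fold, limma adjusted p = 1.52e-05) on the log2 scale.

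*OsPP2C02* (LOC4326717) measured 9.15, 9.22 and 9.48 in H49_DS against 7.46, 7.58 and 8.21 in H49_CT, and 9.15, 9.30 and 9.49 in WT_DS against 7.39, 7.75 and 7.52 in WT_CT. The dried groups nearly coincided, and H49_CT held 1 array above all other controls that still lay 0.94 below the lowest dried one. Its rise was 1.53 ± 0.21 log2 units in H49 (2.89-fold, limma adjusted p = 0.0002431) and 1.76 ± 0.21 in WT (3.38-fold, limma adjusted p = 9.452e-05).

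*OsPP2C47* (LOC4337723) and *OsPP2C10* (LOC4328306) lay at the 2-fold limit. *OsPP2C47* gave 7.74, 7.85 and 7.99 in H49_DS against 6.79, 6.95 and 6.90 in H49_CT, and 7.63, 7.87 and 7.85 in WT_DS against 6.90, 6.76 and 6.43 in WT_CT. No dried array reached down to a control, and the log2 fold change was 0.98 ± 0.17 in H49 (limma adjusted p = 0.001121) and 1.09 ± 0.17 in WT (limma adjusted p = 0.0006238). The adjusted p passed in both genotypes and the fold minimum in WT only.

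*OsPP2C10* gave 8.80, 8.74 and 8.62 in H49_DS against 7.75, 8.22 and 7.36 in H49_CT, and 8.47, 9.13 and 8.56 in WT_DS against 7.47, 8.20 and 7.14 in WT_CT. Replicate 2 was the highest control in both genotypes, and the nearest dried array was 0.39 above it in H49 and 0.27 in WT. Its log2 fold change was 0.94 ± 0.29 in H49 (limma adjusted p = 0.02592) and 1.11 ± 0.29 in WT (limma adjusted p = 0.01189). The WT call of *OsPP2C10* was lost without WT_CT replicate 3 (adjusted p = 0.05958) or WT_DS replicate 2 (adjusted p = 0.05606), and that of *OsPP2C47* without WT_CT replicate 3, at a log2 fold change of 0.96.

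*OsPP2C05* (LOC4325851) was the member with the largest fall. Its values were 6.20, 6.23 and 7.09 in H49_DS against 8.18, 8.54 and 8.11 in H49_CT, and 6.24, 5.97 and 6.16 in WT_DS against 8.75, 8.57 and 7.72 in WT_CT. All dried arrays were below all controls, with H49_DS replicate 3 the nearest to them. On the log2 scale the change was -1.77 ± 0.29 in H49 (3.42-fold lower, limma adjusted p = 0.0006886) and -2.22 ± 0.29 in WT (4.67-fold lower, limma adjusted p = 0.0001554). Among the falls of all genes it ranked 274 in H49 and 73 in WT.

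*OsPP2C12* (LOC4328768) gave 4.75, 4.96 and 5.36 in H49_DS against 6.36, 6.10 and 5.98 in H49_CT, and 4.66, 5.38 and 5.20 in WT_DS against 6.12, 5.87 and 6.14 in WT_CT. The groups did not overlap in either genotype. Its log2 fold change of -1.12 ± 0.22 in H49 (limma adjusted p = 0.002509) passed the 2-fold limit and that of -0.96 ± 0.22 in WT (limma adjusted p = 0.00669) did not. Without H49_DS replicate 1 the H49 value was -0.98, and the call was lost.

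*OsPP2C33* (LOC4332577) gave 4.96, 4.96 and 5.46 in H49_DS against 6.07, 5.79 and 5.95 in H49_CT, and 5.18, 4.12 and 5.25 in WT_DS against 6.20, 5.57 and 5.90 in WT_CT. WT_DS replicate 2 lay about 1 log2 unit below the other WT_DS arrays, and dried and control arrays did not overlap within a genotype. The change was -0.81 ± 0.28 log2 units in H49 (limma adjusted p = 0.04851) and -1.04 ± 0.28 in WT (limma adjusted p = 0.01605). Without WT_DS replicate 2 the WT value was -0.68 (adjusted p = 0.06052), and without WT_CT replicate 1 it was -0.88 (adjusted p = 0.06469), so that the call of *OsPP2C33* needed each of these 2 arrays.

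**Figure D3:**
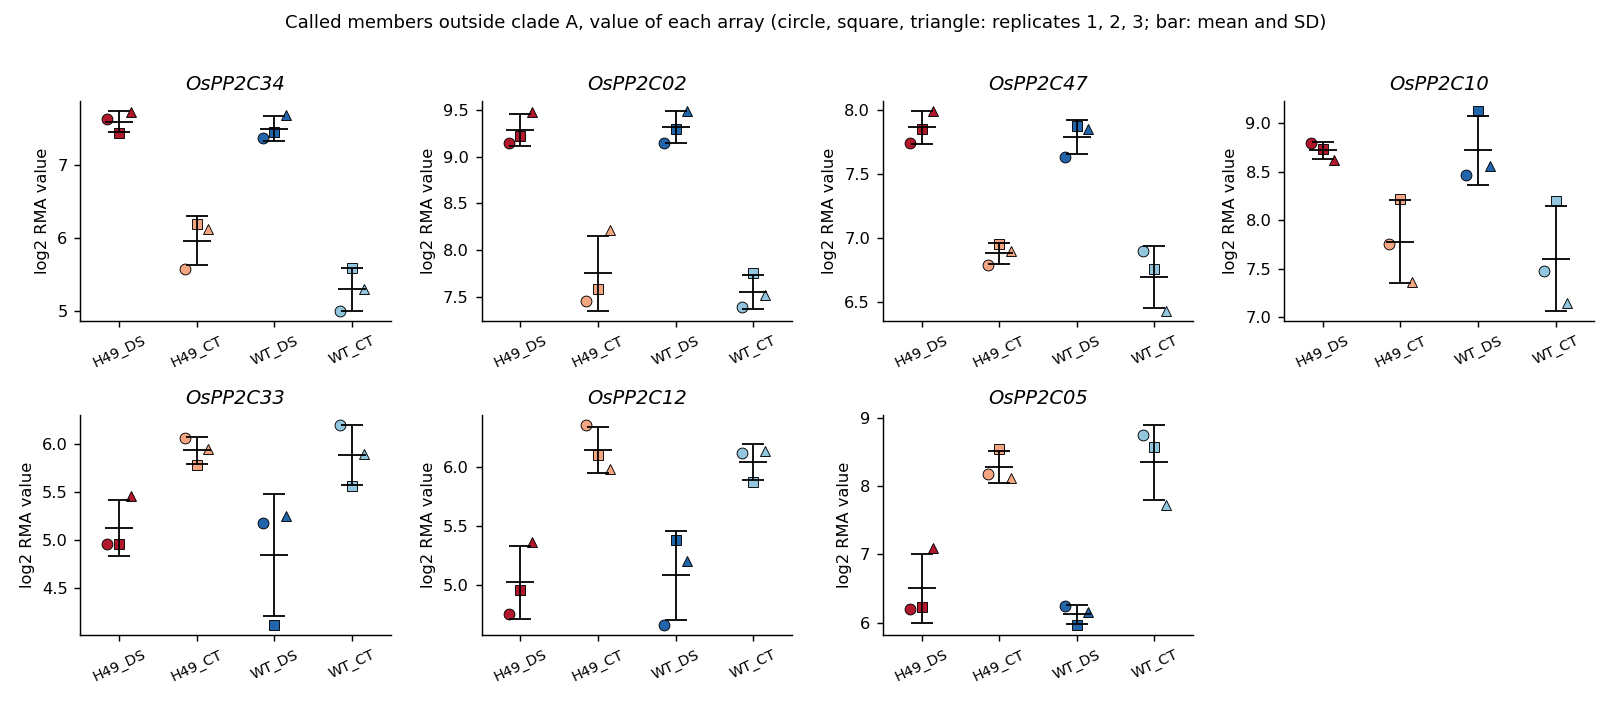
Log2 RMA value of each array for the 7 members outside clade A that were called in at least 1 genotype, with the groups H49_DS, H49_CT, WT_DS and WT_CT on the horizontal axis and the mean and SD of 3 arrays as bars. Vertical axes differ between panels and do not start at 0. *OsPP2C34*, *OsPP2C02*, *OsPP2C47* and *OsPP2C10* were higher after DS and *OsPP2C33*, *OsPP2C12* and *OsPP2C05* lower, with no overlap of dried and control arrays within a genotype.

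With no minimum on the fold, 11 members passed the adjusted p upwards and 4 downwards in H49, where 9.48% and 17.7% of all genes did. In WT 12 members passed it upwards and 3 downwards, where 9.25% and 17.2% of all genes did. Every H49_DS array lay above every H49_CT array in 13 members and below in 5, against 17.7% and 27.1% of all genes. Every WT_DS array lay above every WT_CT array in 13 members and below in 6, against 15% and 24.9% of all genes. In the contrast of DS with control over both genotypes, 9 members were called higher and 2 lower, where 5.1% and 8.86% of all genes were.

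The 21 members called in neither genotype had log2 fold changes from -0.71 to 0.92 in H49 and from -0.48 to 0.94 in WT. For 15 of these 21 in each genotype the 95% interval lay within a 2-fold change in either direction. Nearest to a call was *OsBIPP2C1*, with 9.07, 9.11 and 8.59 in H49_DS against 8.23, 8.33 and 7.45 in H49_CT, and 8.72, 9.37 and 8.75 in WT_DS against 7.87, 8.69 and 7.48 in WT_CT. Its dried arrays lay above the controls, in WT by the small gap between 8.72 and 8.69, and its log2 fold change was 0.92 in H49 (limma adjusted p = 0.04856) and 0.94 in WT (limma adjusted p = 0.04636). *OsPP2C44* passed the adjusted p in both genotypes at a smaller size, with 0.54 in H49 and 0.52 in WT. *OsPP2C28* had -0.71 in H49 with limma adjusted p = 0.04045, and -0.37 in WT, where it did not pass.

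*OsPP2C41* was the member with more than 1 probe set. The one used gave a log2 fold change of 0.46 in H49 (limma adjusted p = 0.1145) and 0.60 in WT (limma adjusted p = 0.04119). The second gave 0.72 in H49 and 0.85 in WT, the same direction. The immunity phosphatase *OsPP2C35* had -0.62 in H49 and -0.48 in WT and was not called.

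The question of whether H49 differed from WT in this family was put in 4 ways, and no member was called in any of them. Between H49_CT and WT_CT 0% of all genes were called and 1.92% had an unadjusted p under 0.05, which 1 member, *OsPP2C34*, had too. Between H49_DS and WT_DS 0% were called and 4.84% had such a p, among them 1 member, *OsPP2C31*. Over both treatments 0% were called and 3.99% had such a p, among them the 3 members *OsPP2C31*, *OsPP2C34* and *OsPP2C73*. For the interaction, the difference of the DS response between H49 and WT, 0% were called and 2.38% had such a p, with no member among them. The smallest limma adjusted p of any gene was 0.9274 in water, 0.7505 after DS, 0.6907 over both treatments and 1 for the interaction. Without all arrays of replicate 1 it was 0.002824 in water, 0.009932 after DS and 0.0008079 over both treatments. The smallest p over all genes thus depended on the replicate 1 arrays. Among the members the smallest limma adjusted p without them was 0.7366 in water, 0.7215 after DS and 0.6478 over both treatments.

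For *OsPP2C34* the arrays listed above gave H49_CT 0.67 ± 0.21 higher than WT_CT on the log2 scale (95% interval 0.22 to 1.13, limma adjusted p = 0.9997, two-sided exact permutation p = 0.2), and H49_DS 0.10 higher than WT_DS. Its interaction was -0.58 ± 0.30 at limma adjusted p = 1. *OsPP2C31* measured 2.62, 2.92 and 3.02 in H49_DS against 3.35, 3.47 and 3.43 in WT_DS, so that every H49 array was below every WT array. The difference was -0.56 ± 0.19 (95% interval -0.96 to -0.16, limma adjusted p = 0.9702, two-sided exact permutation p = 0.1, the smallest possible), in a gene dim enough to be left out by the filter on dim genes. *OsPP2C73*, left out by the same filter, differed by -0.46 over both treatments (limma adjusted p = 0.9688).

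Arrays of H49_CT and WT_CT did not overlap in 2 members, *OsPP2C21* above and *OsPP2C73* below WT_CT, against 7.46% of all genes in either direction. Arrays of H49_DS and WT_DS did not overlap in 2 members, *OsPP2C60* above and *OsPP2C31* below WT_DS, against 8.49% of all genes. For 32 of the 33 members after DS, and for 28 in water, the 95% interval of the H49 minus WT difference lay within a 2-fold change either way. Differences smaller than these intervals were not detectable with 3 arrays a group.

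**Figure D4:**
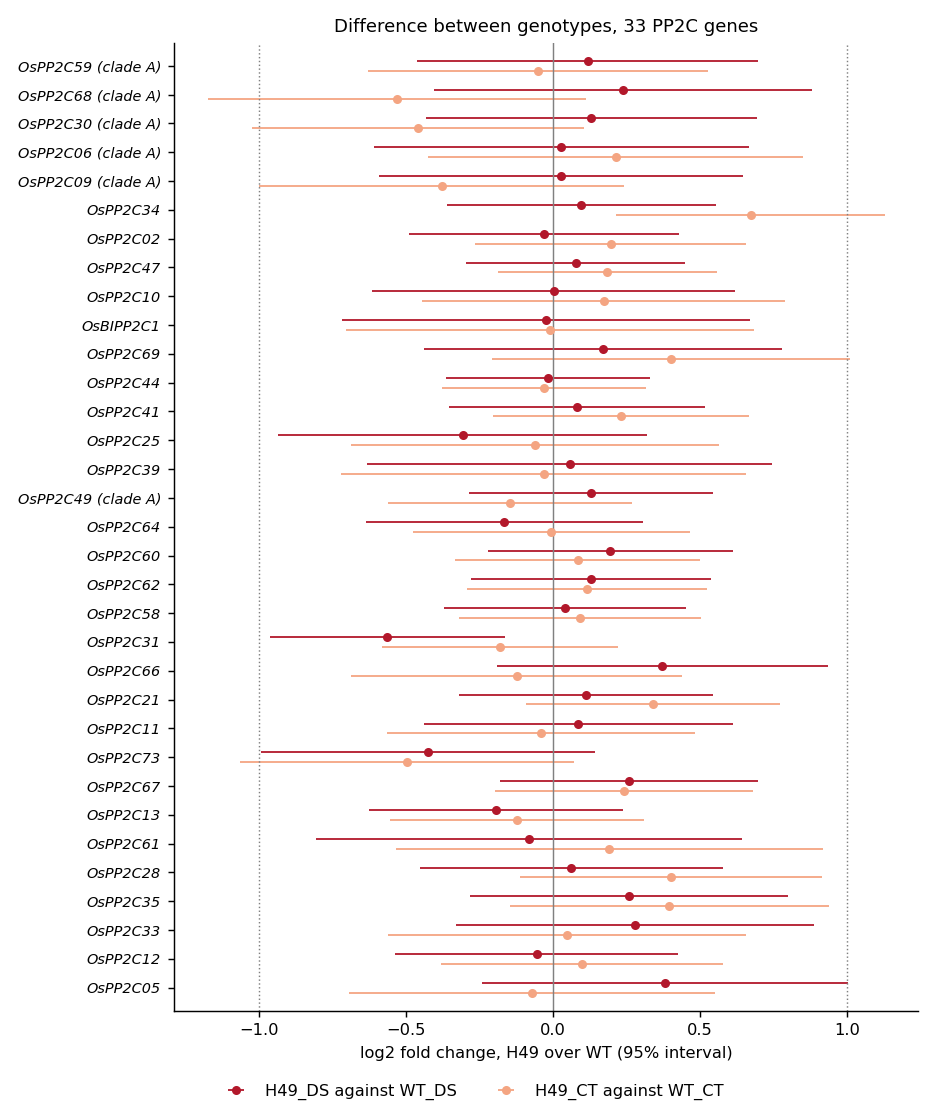
Log2 fold change of H49 over WT for each of the 33 PP2C genes, with its 95% interval from the limma fit, after DS (H49_DS against WT_DS, red) and in water (H49_CT against WT_CT, orange), in the same gene order as for the DS response. The points lie between -0.56 and 0.67, inside the dotted lines of a 2-fold change, and no gene was called.

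Within clade A, no difference between the genotypes was called and their signs were not stable. In water the 95% intervals of *OsPP2C68* (-1.175 to 0.111) and *OsPP2C30* (-1.023 to 0.104) reached past a 2-fold change. H49_DS minus WT_DS ran from 0.03 to 0.24 on the log2 scale with a median of 0.12, above 0 in 6 of 6 members, as in 8407 of all 15140 genes. With quantile-normalized arrays 3 of the 6 were above 0, with centred arrays 5, and without WT_DS replicate 1 or H49_DS replicate 3 there were 4. H49_CT minus WT_CT ran from -0.53 to 0.21 with a median of -0.26, below 0 in 5 of 6 members, but in 4 without WT_CT replicate 1 or H49_CT replicate 3 and in 6 without WT_CT replicate 2. With all arrays, none of these 12 differences was called or had an unadjusted p under 0.05. Without 1 control array some differences in water had such a p, though none was called. These included -0.92 for *OsPP2C68* without WT_CT replicate 2 and 0.62 for *OsPP2C06* without WT_CT replicate 1. They also included -0.72 for *OsPP2C09* without WT_CT replicate 3 and -0.71 for *OsPP2C30* without H49_CT replicate 3.

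*OsPP2C68* had an interaction of 0.77 ± 0.42 (95% interval -0.14 to 1.68, limma adjusted p = 1), *OsPP2C30* 0.59 ± 0.37 and *OsPP2C09* 0.41 ± 0.41. The median interaction of the 6 clade A members was 0.34, with 5 of 6 above 0 and *OsPP2C06* at -0.18. Single arrays of several groups moved these values. For *OsPP2C68* the interaction was between 0.57 without H49_CT replicate 2 or WT_CT replicate 3 and 1.16 without WT_CT replicate 2, and for *OsPP2C30* between 0.30 without H49_CT replicate 2 and 0.84 without H49_CT replicate 3. For *OsPP2C09* it was between 0.10 without WT_CT replicate 1 and 0.75 without WT_CT replicate 3, when it passed that of *OsPP2C68*. *OsPP2C59*, at 0.17 with all arrays, had -0.16 without WT_CT replicate 1 and 0.02 without H49_CT replicate 3, and *OsPP2C06* had -0.59 without WT_CT replicate 1 and 0.05 without WT_CT replicate 2.

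Gene families that hold partners of clade A in ABA signalling were measured in part. The single gene listed as an ABA receptor, *OsPYL11*, also known as OsPYL5 and RCAR5, had log2 fold changes of -0.48 in H49 and -0.36 in WT and was not called. Of 10 SnRK2 kinase genes listed, 4 were measured, of which 1 was called higher in H49 and 3 in WT, and none lower. *OsSAPK1* gave 7.99, 7.98 and 7.97 in H49_DS against 5.79, 5.24 and 5.54 in H49_CT, and 7.08, 8.04 and 7.89 in WT_DS against 6.59, 5.66 and 5.55 in WT_CT. The dried arrays were above the controls throughout, and *OsSAPK1* rose by 2.45 ± 0.30 in H49 (limma adjusted p = 7.721e-05) and by 1.73 ± 0.30 in WT (limma adjusted p = 0.001022). *OsSAPK4* had 0.90 in H49 and 1.04 in WT, and *OsSAPK7* 0.83 in H49 and 1.36 in WT, and both were called in WT only. In H49 *OsSAPK4* passed the adjusted p (limma adjusted p = 0.01238) but not the fold minimum, and *OsSAPK7* passed neither (limma adjusted p = 0.1596). The interaction was -0.14 ± 0.34 for *OsSAPK4* and -0.53 ± 0.59 for *OsSAPK7*, and neither was called. *OsSAPK3* had 0.31 in H49 and -0.05 in WT. *OsSAPK2*, the kinase named above for *OsPP2C30*, was not analysed here, nor were *OsSAPK5*, *OsSAPK6*, *OsSAPK8*, *OsSAPK9* and *OsSAPK10*. Whether clade A members bind the 4 measured kinases was not tested.

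Of 2 ABA-response bZIP genes, the 1 measured was *OsBZIP23*, listed as *ABF2*, with 8.90, 8.74 and 9.08 in H49_DS against 6.05, 5.80 and 6.21 in H49_CT, and 8.61, 9.05 and 9.03 in WT_DS against 5.68, 6.14 and 5.71 in WT_CT. Dried and control arrays lay well apart in both genotypes. It rose by 2.89 ± 0.20 in H49 (limma adjusted p = 1.319e-06) and by 3.05 ± 0.20 in WT (limma adjusted p = 2.095e-06). *ABA8OX2*, which encodes an ABA 8'-hydroxylase that breaks ABA down, rose in H49 by 1.32 (limma adjusted p = 0.0109) and had 0.91 in WT (limma adjusted p = 0.06156), and it was the 1 gene measured of 3 in its list. None of the 4 genes listed for ABA synthesis was measured, and the entry *aba1* among them is the same gene as *TRAB1*, the unmeasured bZIP gene.

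All 5 measured genes of the 8 listed as ABA-induced targets were called higher in both genotypes, with a median log2 fold change of 3.49 in H49 and 3.34 in WT. *OsLEA3-1*, a LEA protein gene listed as *LEA3*, had 5.72 in H49 and 4.68 in WT, and the dehydrin gene *RAB16C* 4.74 in H49 and 3.99 in WT. The LEA gene *EM* had 3.49 in H49 and 2.86 in WT, *LEA1* 2.38 in H49 and 3.34 in WT, and the salt-induced lectin gene *salT* 1.86 in H49 and 1.36 in WT. These changes span the range of the called clade A members. Of 6 genes listed for other phosphatases 2 were measured and neither was called, with -0.01 in H49 and 0.22 in WT for *PP2A3*, a catalytic subunit gene of protein phosphatase 2A, and 0.16 in H49 and -0.07 in WT for *BSL1*, a gene named for its likeness to the brassinosteroid phosphatase BSU1 of Arabidopsis.

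**Figure D5:**
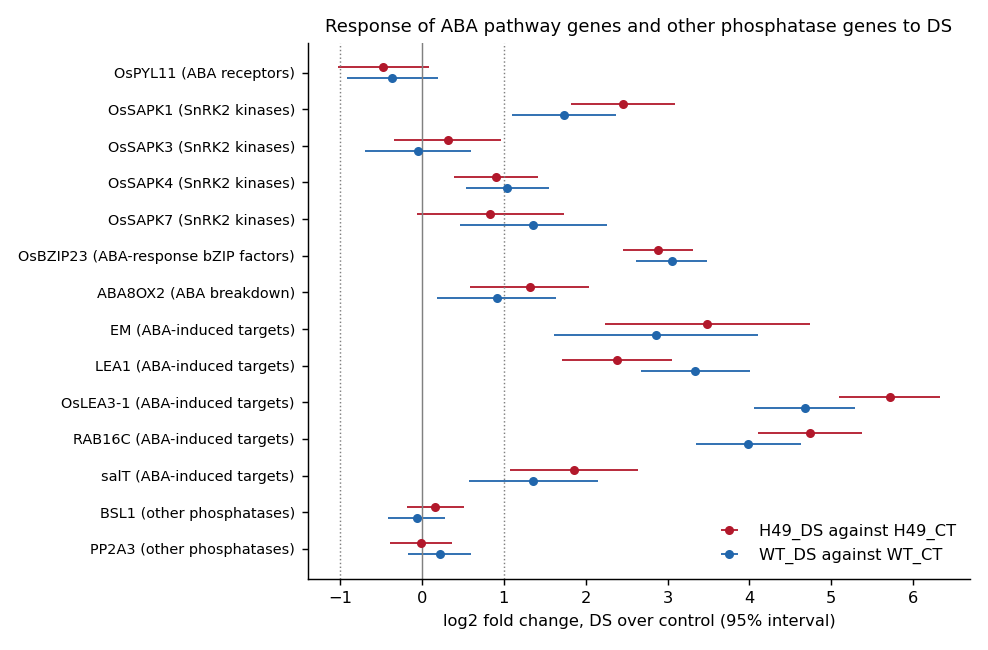
Log2 fold change after DS, with its 95% interval from the limma fit, of the measured ABA pathway genes and of 2 other phosphatase genes in H49 (H49_DS against H49_CT, red) and in WT (WT_DS against WT_CT, blue). The 5 ABA-induced targets lie between 1.36 and 5.72, and *PP2A3* and *BSL1* between -0.07 and 0.22.

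Markers of tissues moved with the treatment. The 3 green leaf markers averaged 7.33 to 7.88 in H49_DS against 8.27 to 9.03 in H49_CT, and 7.27 to 7.6 in WT_DS against 8.33 to 9.06 in WT_CT, and 1 of 3, *CAB2R*, was called lower in both genotypes. The 4 root markers averaged 4.38 to 4.51 in H49_DS against 5.13 to 5.25 in H49_CT, and 4.59 to 4.64 in WT_DS against 4.90 to 5.62 in WT_CT, and 2 of 4, *Lsi2* and *NRAMP5*, were called lower in both genotypes. The other 2 root markers were not called, with -0.32 in H49 and 0.26 in WT for *HKT1;5* and 0.02 in H49 and 0.50 in WT for *OsPT11*. These 2 were dim, at 3.57 in H49_CT and 3.34 in WT_CT for *HKT1;5* and at 4.09 and 3.9 for *OsPT11*. *Lsi2* averaged 7.44 in H49_CT and 7.88 in WT_CT, and *NRAMP5* 5.63 and 5.67. The 2 brighter root markers thus fell in both genotypes, and the 2 dim ones did not move one way. *CAB2R*, *Lsi2* and *NRAMP5* were thus lower in the same dried seedlings in which clade A members and the ABA-induced targets were higher. The part of these shifts in the PP2C results was not tested.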

How the data were processed

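Total RNA of whole seedlings was hybridised to Affymetrix arrays, with the 3' IVT PLUS kit by the labels and WT PLUS by the methods. RMA normalization was done by the authors, and their deposited log2 values were used with no further scaling. Of 54922 probe sets, 15829 carried 1 gene, 440 several and 38653 were unnamed here, which left 15140 genes, each with its probe set of highest mean. Groups came from the sample labels. The fit used limma 3.58.1, under R 4.3.3, on all 12 arrays (lmFit and eBayes, 1 mean per group), with Benjamini-Hochberg adjustment over the 15140 genes, and the thresholds (adjusted p of at most 0.05, fold of at least 2) were those of the paper. Standard errors and 95% intervals are those of this fit, whose width is set by 3 arrays a group.

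The members and lists were chosen with earlier results of these data known. Values of every array are given for clade A, set from general knowledge of the family, and for all other called members. The members *OsPP2C13*, *OsPP2C21*, *OsPP2C28*, *OsPP2C35*, *OsPP2C41*, *OsPP2C44*, *OsPP2C60* and *OsPP2C73* were named after their values were seen. Alternatives covered the scaling, the fold minimum, the test, a filter on dim genes, averaging of probe sets, a replicate block and leaving out each array. The fit was tested on simulated data. Protein and promoter sequences and genome positions were not analysed here.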

Additional observations from a re-analysis of the deposited data

How the results depend on the processing

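The 5 clade A calls in each genotype held under every alternative run, as did the count of 0 members called between genotypes and for the interaction. No called member changed the sign of its DS response. In H49 the 9 members called after DS became 15 with no fold minimum and 14 at a fold of at least 1.5. In WT the 11 became 6 by a t-test of each gene after Benjamini-Hochberg adjustment. For its own array test the paper refers to an earlier study. Over both genotypes the 11 became 18 with no fold minimum. Leaving out 1 array, or all arrays of a replicate number, gave 8 to 12 calls in H49, 8 to 13 in WT and 9 to 13 over both genotypes. Arrays of the same replicate number were partly alike: 13 of 18 same-numbered pairs of arrays had correlated deviations above 0.1, the lowest was -0.195, and 10 of 12 arrays correlated best with their own number, a hint from the data and not from the design. As 5 pairs fell short of 0.1, the arrays were treated as unpaired. A fit with the replicate block gave 7 higher and 2 lower in H49 and 9 higher and 2 lower in WT, as without it. Under the block no member was called between genotypes or for the interaction, while the members with an unadjusted p under 0.05 were 4 in place of 3 over both treatments and 1, *OsPP2C68*, in place of 0 for the interaction (adjusted p = 0.9997). The filter on dim genes left out 4 members, *OsPP2C25*, *OsPP2C31*, *OsPP2C66* and *OsPP2C73*, and changed no call after DS. The results are limited by 3 arrays a group, by 28 members without a named probe set and by a single transgenic line.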
